A study of Mus musculus with 4 samples.

Results

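The Notch pathway was followed through 10 genes: the receptors Notch1, Notch2, Notch3 and Notch4, the ligands Dll1, Jag1 and Jag2, the DNA-binding partner Rbpj, and the target genes Hes1 and Hey1. Members were taken as the probe sets whose gene symbol in the platform annotation was exactly 1 of these names, which gave 20 of 45037 probe sets and 10 of 18193 named genes. Mammary tissue of mice labelled STAT5 KO and of mice labelled STAT5 WT had been collected at 6 days, with 2 mice of each genotype per the series' design, and each RNA was hybridised to its own Affymetrix array. The event from which the days were counted, the strain, the sex and age of the mice, the cells in which the deletion took place and the part of the locus that was removed are not given in the sources used here. The title names STAT5A, the labels name only STAT5, and STAT5 is a transcription factor that acts downstream of prolactin in the mammary epithelium. The comparison asks which of these transcripts differed between KO and WT tissue.

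Notch signalling passes between touching cells. A ligand of the Delta or Jagged kind on 1 cell binds a Notch receptor on its neighbour, the bound receptor is cut first by an ADAM protease and then by gamma-secretase, and the freed intracellular part joins RBPJ on DNA to switch on target genes, among them repressors of the HES and HEY families. In the mouse mammary gland the pathway is known for its part in the choice of the luminal over the basal fate and in the maintenance of luminal progenitors. Notch4 is also known from blood vessel endothelium, and Notch3 from pericytes and vascular smooth muscle.

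The 4 arrays were alike in overall signal, with medians of 121 and 124 on the KO arrays and 131 and 130 on the WT arrays. Probe sets are no independent replicates; across them Pearson's r was 0.980 between the KO arrays and 0.981 between the WT arrays. Stat5a gave 1836 and 861 on KO replicates 1 and 2 against 2307 and 2061 on the WT arrays with its brighter probe set, and Stat5b gave 1069 and 712 on the KO arrays against 1522 and 1506 on the WT arrays. Both were lower on both KO arrays and neither passed the test (limma adjusted p = 0.246 and 0.102). Their dimmer probe sets were also lower on both KO arrays, by log2 differences of -1.22 for Stat5a and -0.97 for Stat5b. These did not pass either (limma adjusted p = 0.106 and 0.121). Since the deleted part is not known, these probe sets need not lie in it. Of 19 general epithelial markers on the array all were bright enough to be tested, and no marker of any list was at 0.

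None of the 10 Notch genes passed the threshold between KO and WT tissue. A change was called at an adjusted p under 0.05 in limma's moderated test, adjusted by Benjamini-Hochberg over the 22519 probe sets tested. The share of all 11360 tested genes called in either direction was 2.57%, so that 0 calls in 10 genes is near what this background holds. At an unadjusted p under 0.05, 3 of the 10 genes stood out, Jag2 and Dll1 lower and Hey1 higher in KO, where 21.3% of all tested genes did. That count of member probe sets was 0 without WT replicate 2, 0 with arrays centred on epithelial markers and 5 without KO replicate 2. Both KO arrays lay above both WT arrays for 4 of the 10 genes, against 26.2% of all tested genes, and below them for 3, against 27.5%. The median log2 difference of the 10 genes was 0.12, that of all tested genes -0.0099. All 10 genes were tested through their brightest probe set. Of the 20 probe sets 17 were bright enough for the test and 0 of these were called, and the other 3, 1 of Notch2 and 2 of Notch4, fell below the limit on signal.

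**Figure D1:**
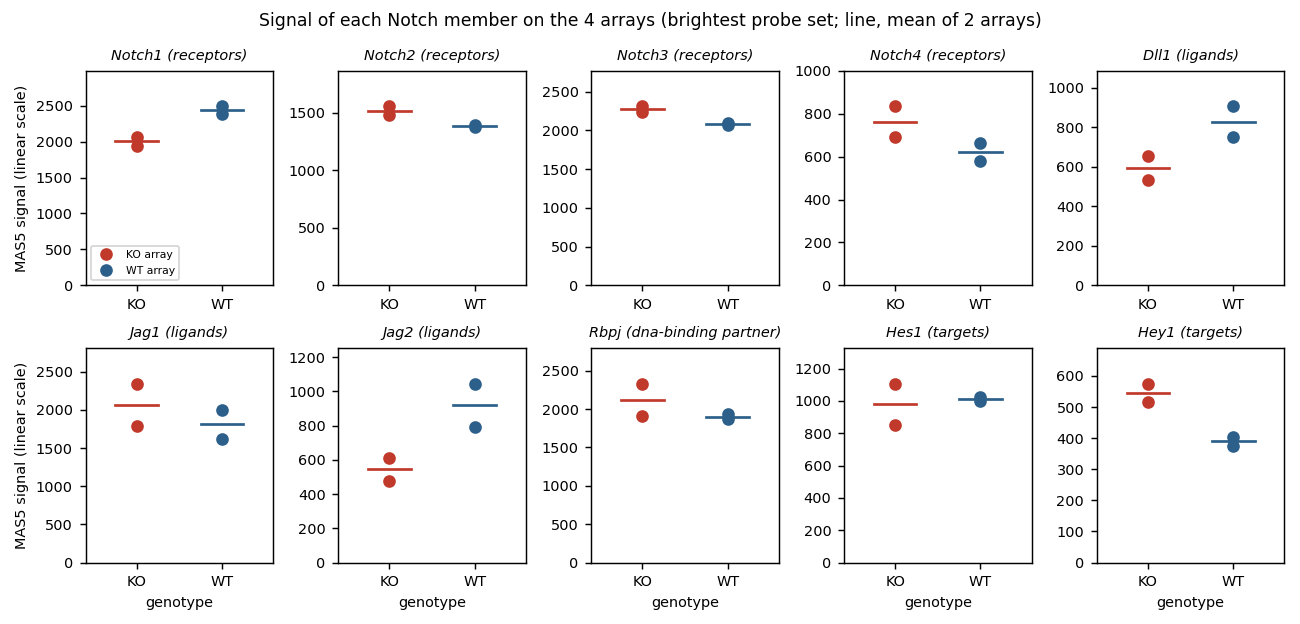
MAS5 signal on a linear scale starting at 0 for the brightest probe set of each of the 10 genes, with KO arrays (red) left of WT arrays (blue), a point for each array and a line at the mean of 2 arrays. Dll1, Jag2 and Notch1 show both KO points under both WT points, Hey1, Notch2, Notch3 and Notch4 show the opposite order, and the points of Jag1, Rbpj and Hes1 overlap.

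Jag2 showed the largest difference among the tested probe sets of the members. This gene encodes a Jagged ligand carried on the cell surface. Its brighter probe set, 1426431_at, gave signals of 476 and 613 on the KO arrays and of 794 and 1046 on the WT arrays. Both KO arrays were lower than both WT arrays, and the mean was 544 ± 96.8 in KO tissue against 920 ± 178 in WT tissue (SD, n = 2 each), or 59.1% of the WT mean. The log2 difference was -0.74 and its 95% interval -1.22 to -0.26 (SE 0.20, limma unadjusted p = 0.00854, adjusted p = 0.110). The second Jag2 probe set, 1426430_at, stood at 472 and 599 on the KO arrays and at 645 and 858 on the WT arrays. It kept the same order of arrays with a smaller difference of -0.47 (SE 0.20, limma adjusted p = 0.263). The WT arrays themselves lay apart by 1.32-fold on the brighter probe set, so KO replicate 2 was closer to WT replicate 1 than the WT arrays were to each other.

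Dll1, a Delta-like ligand that in the mouse mammary gland is known from a subset of basal cells, lay lower in KO tissue as well. Its single probe set, 1419204_at, gave 532 and 657 on the KO arrays and 753 and 906 on the WT arrays. The groups did not overlap, and the KO mean was 71.7% of the WT mean. The log2 difference was -0.47 and its 95% interval -0.90 to -0.047 (SE 0.18, limma unadjusted p = 0.0343, adjusted p = 0.215). As with Jag2, KO replicate 1 was the lowest array and WT replicate 2 the highest.

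Jag1, the other Jagged ligand, differed more between the KO mice than between genotypes. Its brightest probe set, 1434070_at, stood at 2344 and 1785 on the KO arrays and at 1623 and 1999 on the WT arrays. The second, 1421106_at, gave 836 and 379 on the KO arrays and 470 and 553 on the WT arrays. The third, 1421105_at, gave 417 and 229 on the KO arrays and 249 and 307 on the WT arrays. On all 3 probe sets KO replicate 1 was the highest of the 4 arrays, at 1.31, 2.21 and 1.82 times KO replicate 2, and on the dimmer pair KO replicate 2 was the lowest. The log2 differences were 0.18, 0.14 and 0.15 with SEs of 0.18, 0.34 and 0.29 (limma adjusted p = 0.639, 0.862 and 0.821). The interval of the brightest ran from 0.839 to 1.53 times the WT level on the scale of signal + 16, so a change of that size in either direction could not be told from none. Without KO replicate 1 its difference was -0.013.

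The 2 KO mice also differed in tissue markers. The median log2 difference from the WT mean was -0.68 on KO replicate 1 and -0.14 on KO replicate 2 for 19 general epithelial markers, and -0.67 and 0.054 for 11 basal and myoepithelial markers. The summed signal of the epithelial markers was 35528 and 55731 on the KO arrays and 51050 and 53348 on the WT arrays. That of the basal markers was 22289 and 33687 on the KO arrays and 30991 and 36750 on the WT arrays. KO replicate 1 was thus the lowest array for both marker lists, as it was for Jag2, Dll1, Notch1 and Hes1, while on their brightest probe sets it was the highest for Jag1, Notch4 and Rbpj, and the part of these cells in the ligand signals was not tested. In whole tissue, fewer cells of a type and less RNA per cell cannot be told apart.

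To show the sequence in front of the ligands that lay lower, the 250 bases before the annotated start are given for Jag2 and for the start of Dll1 whose window held a match to a motif searched, with 30 bases of Notch3, the only one of the members searched with a match to the STAT motif. Sequences are from RefSeq on build GRCm38.p6, in 5′ to 3′ order on the minus strand, where all 3 genes lie. Capitals mark motif matches, namely CACGCG in Dll1 and TTCNNNGAA in Notch3.
Jag2, chr12:112929496-112929745: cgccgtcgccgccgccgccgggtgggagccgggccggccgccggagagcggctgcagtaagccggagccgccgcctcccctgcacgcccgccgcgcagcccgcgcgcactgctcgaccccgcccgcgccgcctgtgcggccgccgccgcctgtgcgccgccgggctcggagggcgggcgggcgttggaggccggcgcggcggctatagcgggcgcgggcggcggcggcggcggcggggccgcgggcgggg
Dll1, chr17:15376933-15377182: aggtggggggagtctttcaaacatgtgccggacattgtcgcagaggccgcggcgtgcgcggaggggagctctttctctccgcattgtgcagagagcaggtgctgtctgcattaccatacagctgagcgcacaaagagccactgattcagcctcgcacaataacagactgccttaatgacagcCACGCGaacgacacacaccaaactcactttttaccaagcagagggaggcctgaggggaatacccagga
Notch3, chr17:32166869-32166898: acagcctcacTTCGGCGAAgttggcggcgc

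Windows of 300 bases, 250 before and 50 after a start, were on hand for 8 of the 10 genes, in 10 windows. The motif TTCNNNGAA, to which STAT5 dimers are known to bind and which reads the same on both strands, occurred in 1 of the 10 windows, that of Notch3 at bases 3 to 11 after the start, and in 8.30% of all 32851 windows. The RBPJ core TGGGAA, searched on both strands, occurred in both windows of Rbpj, which overlap and share a match, and in no other member's, against 25.6% of all windows. The HES and HEY sites CACGTG or CACGCG, on both strands, occurred in 4 windows, 1 each of Jag1, Jag2, Notch2 and Dll1, against 15.4% of all windows. In Dll1 the match lay 68 to 63 bases before the start, and in Jag2 at bases 19 to 24 after it, outside the stretch printed. No matches to different motifs overlapped in these windows. A match is a run of letters in the window and not a measured binding site.

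None of the receptors was called, and the log2 differences of their brightest probe sets ran from -0.28 to 0.29. Notch1, known in this gland from luminal cells, was the only receptor whose brightest probe set lay lower in KO. That probe set, 1418634_at, gave 1940 and 2066 on the KO arrays and 2489 and 2379 on the WT arrays. The groups did not overlap, with a KO mean at 82.3% of the WT mean and a log2 difference of -0.28 (SE 0.13, limma adjusted p = 0.283). The dimmer Notch1 probe set, 1418633_at, gave 407 and 505 on the KO arrays and 477 and 471 on the WT arrays. Here the groups overlapped and the difference was -0.063 (SE 0.17, limma adjusted p = 0.880).

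Notch2 gave 1475 and 1554 on the KO arrays and 1378 and 1396 on the WT arrays with its brighter probe set, 1455556_at. Both KO arrays were slightly higher, with a log2 difference of 0.13 (SE 0.13, limma adjusted p = 0.652). Its dim probe set, 1451889_at, gave 23.6 and 73.3 on the KO arrays and 81.3 and 102 on the WT arrays. These signals lie below the array medians and in the opposite order, and with no limit on signal the difference was -0.85 (SE 0.44, limma adjusted p = 0.460). The 2 probe sets of Notch2 thus disagree in direction, and neither was called.

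Both probe sets of Notch3 kept the same order of groups. The brighter, 1421965_s_at, gave 2235 and 2308 on the KO arrays and 2100 and 2065 on the WT arrays, and the other, 1421964_at, gave 848 and 933 on the KO arrays and 767 and 724 on the WT arrays. On both the KO arrays stood above the WT arrays, at 109% and 119% of the WT mean. The log2 differences were 0.12 and 0.25 with SEs of 0.12 and 0.14 (limma adjusted p = 0.636 and 0.397). The interval of the brighter one ran from 0.889 to 1.34 times the WT level.

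Notch4 gave 834 and 691 on the KO arrays and 665 and 578 on the WT arrays with its bright probe set, 1449146_at. Both KO arrays were higher, at 123% of the WT mean, with a log2 difference of 0.29 (SE 0.17, limma adjusted p = 0.404). The other probe sets were dim. The first, 1436901_at, gave 39.0 and 67.1 on the KO arrays and 35.5 and 55.1 on the WT arrays, and with no limit on signal its difference was 0.16 (SE 0.35, limma adjusted p = 0.887). The other, 1456263_at, gave 42.3 and 30.2 on the KO arrays and 55.0 and 50.8 on the WT arrays, a difference of -0.41 (SE 0.28, limma adjusted p = 0.586). The dim pair thus disagreed in direction, and with the mean of all its probe sets Notch4 stood at 0.013. Of 12 endothelial markers tested 0 were called in either direction, with a median log2 difference of 0.13, and their summed signal was 19911 and 17541 on the KO arrays and 17328 and 16324 on the WT arrays. Of 6 pericyte markers 0 were called, with a median of 0.25 and sums of 15828 and 13662 on the KO arrays against 12851 and 13588 on the WT arrays. For both lists KO replicate 1 held the highest sum. It was the highest array for the bright probe set of Notch4 only. On the dim pair KO replicate 2 was the highest for 1436901_at and WT replicate 1 for 1456263_at. For both probe sets of Notch3 KO replicate 2 was the highest. The part of vessel cells in the signals of Notch3 and Notch4 was not tested.

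**Figure D2:**
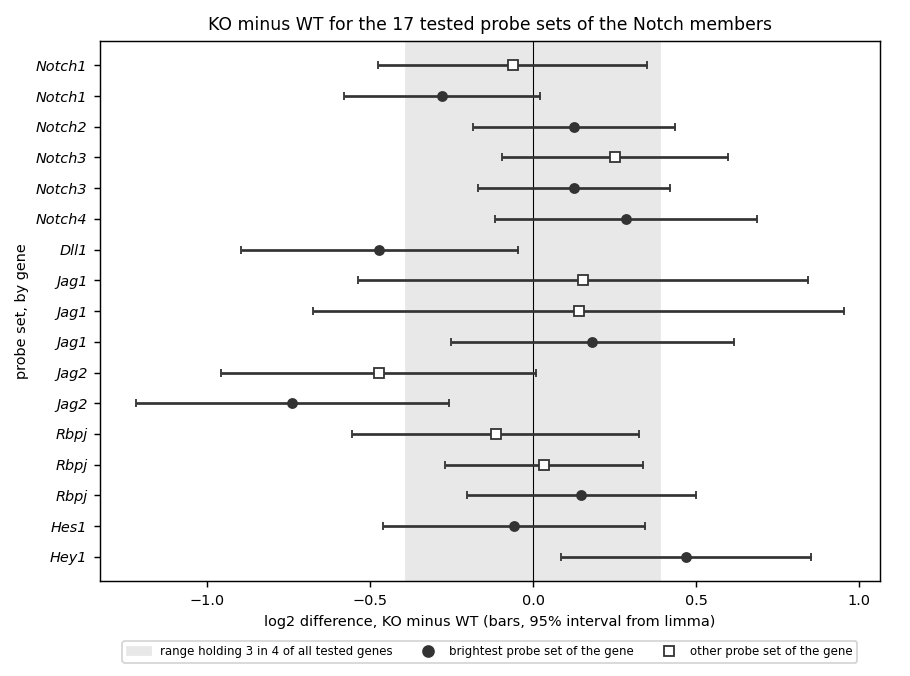
Log2 difference KO minus WT (horizontal axis) for the 17 tested probe sets of the members, by gene, with 95% intervals from limma; filled circles are the brightest probe set of a gene, open squares its others, and the grey band is the range that holds 3 in 4 of all tested genes (0.39 either side of 0). Among the brightest probe sets only those of Jag2, Dll1 and Hey1 have intervals clear of 0 before adjustment over all probe sets.

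Rbpj, through which all 4 receptors act on DNA, showed no difference in a shared direction. Its brightest probe set, 1454896_at, gave 2333 and 1909 on the KO arrays and 1867 and 1939 on the WT arrays. The middle one, 1448957_at, gave 1553 and 1566 on the KO arrays and 1534 and 1513 on the WT arrays, and the dimmest, 1418114_at, gave 643 and 488 on the KO arrays and 576 and 642 on the WT arrays. Only the middle probe set kept the groups apart, with a KO mean at 102% of the WT mean and a log2 difference of 0.033 (SE 0.13). The other differences were 0.15 and -0.11 (limma adjusted p = 0.636 for the brightest and 0.785 for the dimmest). The interval of the brightest ran from 0.869 to 1.41 times the WT level.

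Hes1 and Hey1 encode related repressors that Notch signalling switches on in many tissues, and they gave different pictures here. Hey1, through probe set 1415999_at, stood at 515 and 575 on the KO arrays and at 375 and 403 on the WT arrays. Both KO arrays were higher than both WT arrays, and the mean was 545 ± 42.5 in KO tissue against 389 ± 19.7 in WT tissue (SD, n = 2 each). The log2 difference was 0.47 and its 95% interval 0.086 to 0.85 (SE 0.16, limma unadjusted p = 0.0233, adjusted p = 0.179). Hes1, through probe set 1418102_at, stood at 852 and 1107 on the KO arrays and at 1024 and 1002 on the WT arrays. The WT arrays fell between the KO arrays, and the log2 difference was -0.059 (SE 0.17, limma adjusted p = 0.883). The Hes1 interval ran from 0.726 to 1.27 times the WT level, and that of Hey1 from 1.06 to 1.80 times. The intervals of these genes overlap, and the difference between them was not tested.

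**Figure D3:**
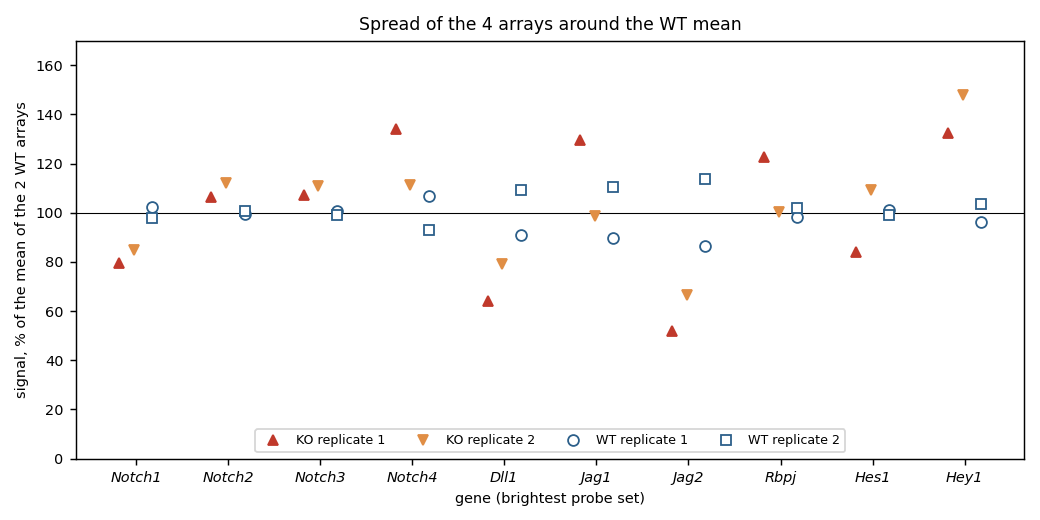
Signal on each array as a percentage of the mean of the 2 WT arrays (vertical axis from 0), for the brightest probe set of each gene; filled triangles are the KO arrays and open symbols the WT arrays. The KO arrays lie apart most for Jag1, Hes1, Notch4 and Rbpj, while Jag2 has both below the WT points and Hey1 both above them.

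The rest of the pathway was read from 58 further genes in 8 roles, of which 53 were on the array under these symbols and 46 were bright enough to test. None was called by limma in either direction, against the background of 2.57% of tested genes. At an unadjusted p under 0.05, 2 were higher and 5 lower in KO, together 7 of 46 beside 21.3% of all tested genes. Both KO arrays lay above both WT arrays for 6 and below them for 16, beside 26.2% and 27.5% of all tested genes. The median log2 difference was 0.0046.

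The smallest adjusted p among the brightest probe sets of these genes was that of Lfng, or Lunatic fringe, a glycosyltransferase that adds a sugar to Notch receptors and so alters which ligands they answer to. Lfng gave 731 and 677 on the KO arrays and 1113 and 1325 on the WT arrays. The groups lay well apart, with a log2 difference of -0.77, a 95% interval of -1.14 to -0.40 (SE 0.15, limma adjusted p = 0.0586). Its other probe set gave 238 and 217 on the KO arrays and 422 and 469 on the WT arrays, a difference of -0.92 (limma adjusted p = 0.0523). Mfng, the Manic fringe gene of the same enzyme family, gave 2189 and 1891 on the KO arrays and 1614 and 1354 on the WT arrays. It stood higher in KO by 0.46 (SE 0.15, limma adjusted p = 0.173), the opposite order of arrays to Lfng. The remaining 3 glycosylation genes overlapped between the groups, and the median of the 5 was 0.02.

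Among coactivators, the acetyltransferase gene Kat2b gave 2694 and 2442 on the KO arrays and 1660 and 1684 on the WT arrays. Both KO arrays stood above the WT arrays by far more than either pair differed, with a log2 difference of 0.61 (SE 0.13, limma adjusted p = 0.0640). Its other probe sets lay the same way by 0.30 and 0.41 (limma adjusted p = 0.473 and 0.357). Its paralogue Kat2a gave 1026 and 1147 on the KO arrays and 1286 and 1433 on the WT arrays, a difference of -0.32 (limma adjusted p = 0.285). The paralogues were therefore in opposite order between the genotypes, neither being called, and the 6 tested coactivators had a median of 0.06.

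Of the ligand-like genes Dlk2, a Delta-like protein without the domain that binds Notch in the classical way, gave 117 and 110 on the KO arrays and 207 and 282 on the WT arrays. Its KO signals lay under the KO array medians, and the log2 difference was -0.997 (SE 0.23, limma adjusted p = 0.0751). Dlk1, a related gene, gave 205 and 164 on the KO arrays and 238 and 298 on the WT arrays, with a difference of -0.50 (limma adjusted p = 0.262). The dimmer probe sets did not share this order. That of Dlk2 overlapped, at 79.4 and 131 on the KO arrays and 101 and 253 on the WT arrays, and that of Dlk1, too dim to test, had both KO arrays above both WT arrays. Dll4 overlapped between the groups, and Dll3 and Dner were too dim to test.

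Nrarp, a Notch target that feeds back to damp the pathway, gave 630 and 641 on the KO arrays and 869 and 1047 on the WT arrays. The groups did not overlap, and its log2 difference was -0.57 (SE 0.16, limma adjusted p = 0.111). Its dimmer probe set gave 247 and 239 on the KO arrays and 399 and 525 on the WT arrays, a difference of -0.87 (limma adjusted p = 0.0702). Numbl, a relative of the Notch inhibitor Numb, gave 262 and 352 on the KO arrays and 229 and 250 on the WT arrays, a difference of 0.33 (limma adjusted p = 0.440). The 9 genes of inhibition and turnover had a median of -0.01. Nrarp and Hey1, both known as Notch targets, thus stood in opposite order between KO and WT tissue, neither passing the test.

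None of 10 tested corepressor genes was called by limma. Both KO arrays lay below both WT arrays for 7 of them, beside 27.5% of all tested genes, and above for 1, with a median log2 difference of -0.15. Tle4, a Groucho corepressor recruited by HES proteins, gave 357 and 297 on the KO arrays and 447 and 576 on the WT arrays, a difference of -0.61 (limma adjusted p = 0.156). Its other 2 probe sets were too dim to test and lay at -0.047 and 0.39 with no limit on signal, so that the mean of all Tle4 probe sets was -0.090. Ctbp2 gave 1788 and 2013 on the KO arrays and 2194 and 2920 on the WT arrays, a difference of -0.41 (limma adjusted p = 0.252). On their brightest probe sets these 2 had the largest differences of the role.

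In the machinery that cuts the receptor 0 genes were called. The 8 tested genes ran from -0.21 to 0.28 in log2 difference, with a median of 0.03. At the ends were Adam17, at 1236 and 1362 on the KO arrays against 1408 and 1613 on the WT arrays (limma adjusted p = 0.471), and Adam10, at 4268 and 3934 on the KO arrays against 2905 and 3934 on the WT arrays (adjusted p = 0.422), the proteases of the first cut. In ligand endocytosis, Neurl1b gave 306 and 287 on the KO arrays and 225 and 234 on the WT arrays, a difference of 0.35 (limma adjusted p = 0.336). Mib2, another ubiquitin ligase of this step, gave 973 and 1112 on the KO arrays and 979 and 766 on the WT arrays, a difference of 0.26 (limma adjusted p = 0.464). Of the other HES and HEY genes, Hes6 (0.13) and Heyl (-0.058) overlapped between the groups on their brightest probe sets, and Hes5, Hes7 and Hey2 were too dim to test. The other Hes6 probe set gave 313 and 394 on the KO arrays and 542 and 420 on the WT arrays, a difference of -0.43 (limma adjusted p = 0.308). The dimmer Heyl probe sets also had both KO arrays below both WT arrays. Their differences were -0.20 (limma adjusted p = 0.633) and, with no limit on signal, -0.54 (limma adjusted p = 0.439).

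**Figure D4:**
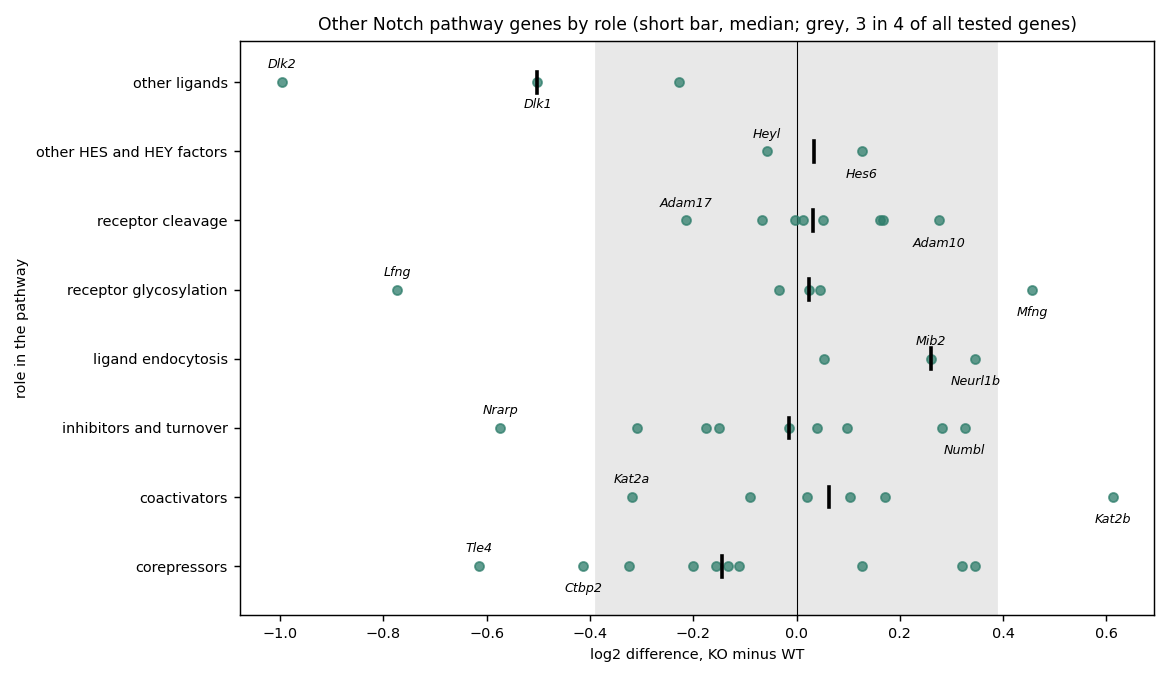
Log2 difference KO minus WT (horizontal axis) of the 46 tested pathway genes outside the 10 members, a point for each gene by role (vertical axis), with a short black bar at the median of each role and a grey band holding 3 in 4 of all tested genes. Dlk2, Lfng, Tle4 and Nrarp lie farthest to the lower side and Kat2b and Mfng farthest to the higher side, and none of the 46 was called.

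Markers of other tissue components were called between the genotypes, where 2.57% of all tested genes were called. Of 8 luminal progenitor markers 3 were lower and 1 higher at the threshold, with a median of -0.76 and a range of -3.56 to 3.73. Among 19 general epithelial markers 1 was higher and 1 lower, with a median of -0.40. Of 11 basal markers 1 was lower, with a median of -0.26. Of 9 skeletal muscle markers tested 5 were higher, with a median of 2.85 and summed signals of 9675 and 5706 on the KO arrays against 1384 and 436 on the WT arrays. None was called among 7 macrophage markers (median 0.54), 7 fibroblast markers (0.07), 6 adipocyte markers (0.11) or the 1 tested marker of B and T cells (-1.21). At an unadjusted limma p under 0.05, where 21.3% of all tested genes stood, 5 of 7 macrophage markers were higher and 0 lower. Higher by this measure were also 3 of 6 pericyte, 1 of 12 endothelial, 1 of 7 fibroblast and 9 of 9 muscle markers, with 0 lower. Of the general epithelial markers 2 were higher and 7 lower, of the luminal progenitor markers 2 and 5, and of the basal markers 0 and 3. Among adipocyte markers and the B and T cell marker 0 stood out. The B and T cell marker stood at -2.74 on KO replicate 1 and at 0.32 on KO replicate 2 against the WT mean. The part of these components in the signals of the Notch genes was not tested.

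The directions depend on what the arrays are scaled to. Centring on general epithelial markers moved the median of all tested genes from -0.0099 to 0.32, by adding the same amount, 0.33, to every difference. It left 142 genes called higher and 56 lower in KO (71.7% higher), against 138 and 154 in the values as deposited (47.3%) and 192 and 119 with arrays centred on their median (61.7%). On that scale Notch1 stood at 0.048 and Hes1 at 0.27, while Jag2 (-0.41) and Dll1 (-0.14) stayed lower and Hey1 (0.80) higher in KO.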

How the data were processed

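Total RNA from 4 mouse mammary tissues (2 KO, 2 WT) was prepared with TRIzol and biotin-labelled, per the labels' protocols. The deposited intensities, 1 per probe set and on a linear scale, were made by the authors with MAS5, per the submitters' processing notes, whose version and settings are not given in the sources used here. The trimmed mean was about equal on all arrays (498). No detection calls entered. The number of arrays limits the precision.

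Of 45101 probe sets 64 controls were left out, 34945 of the rest had 1 symbol in the platform annotation, which can be old, 932 had several and 9160 are unnamed here. Signals were taken as log2(signal + 16), and log2 differences on this scale understate the change of dim genes. Probe sets with a mean log2 value at or above the median of all, 7.15 (a signal of 126), were tested with limma 3.58.1 in R 4.3.3 (lmFit, eBayes with a trend), KO against WT without covariates, with Benjamini-Hochberg adjustment over 22519 probe sets and a threshold of 0.05. A probe set has 2 residual degrees of freedom. The fit was tested on simulated data. The known differences in it were larger than that of any member, so it does not bear on differences of their size. A gene was represented by its brightest probe set. Replicates were numbered in order of deposit, and the p-values cover only the spread among these samples. With 2 arrays a group the smallest two-sided p of an exact permutation test is 0.333, and no such test was run.

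The members, the pathway roles and the marker lists were chosen with earlier results of these data known. The text gives all member probe sets and, from each role, the genes past the threshold and up to 2 tested genes with the largest absolute difference. The alternatives tried were pseudocounts of 1 and 64, quantile normalization, centring on the array median or on 19 general epithelial markers, no filter, a filter at the 75th percentile, no trend, the mean of all probe sets of a gene, and leaving out each array. Promoter windows came from RefSeq (GRCm38.p6), a build not tied to the array.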

Additional observations from a re-analysis of the deposited data

How the results depend on the processing

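No member and no other pathway gene was called under any of the 13 alternatives, with the smallest adjusted p among members between 0.0589 (Jag2, without KO replicate 2) and 0.562 (Hey1, centred on epithelial markers), and among pathway genes between 0.0542 (Kat2b, centred on the array median) and 0.443 (Kat2b, centred on epithelial markers). The 0 calls among members therefore held in every setting, while the count of all called probe sets, 450, was 38 with no filter, 182 with the filter at the 75th percentile and 205 with no trend, and ran from 67 (without WT replicate 2) to 1021 (without KO replicate 2) with an array left out, with 157 without WT replicate 1. With the mean of all probe sets, 126 genes were called against 292. In the values as deposited 2.57% of all tested genes were called, and several of these settings called fewer. So few calls over all genes made 0 calls in 10 members likely in advance, so that their holding in every setting adds little. The same share stands beside the 0 calls in the 46 other pathway genes tested. Jag2, Dll1, Hey1, Notch3, Notch4, Rbpj, Lfng, Mfng, Kat2b, Dlk2 and Nrarp kept their direction in each setting in which they were tested. With an array left out, Jag2 ran from -0.93 to -0.54, Dll1 from -0.62 to -0.32 and Hey1 from 0.39 to 0.55. In the same way Rbpj ran from 0.0044 (without KO replicate 1) to 0.29, Notch4 from 0.15 (without KO replicate 1) to 0.42, Adam10 from 0.059 to 0.49 (without WT replicate 2), Adam17 from -0.31 to -0.12, Mib2 from 0.086 to 0.43, Numbl from 0.12 to 0.53 and Ctbp2 from -0.62 to -0.21. Centring shifts each array by its own amount, so the spacing of the arrays within a group changes as well. On epithelial markers the Hey1 difference rose from 0.47 to 0.80 while its limma adjusted p rose from 0.179 to 0.562. The 0 calls in that setting therefore say little about the members. Between the groups, centring adds a constant to every difference, 0.33 for epithelial markers and 0.082 for the array median. By construction this took Notch1 (0.048), Hes1 (0.27), Heyl (0.27), Adam17 (0.11) and Kat2a (0.0083) across 0 with the first and Hes1 (0.023) and Heyl (0.024) with the second. The sign also turned, the cause not tested, for Heyl (0.000195) after quantile normalization. Averaging in dimmer probe sets turned it for Notch2 (-0.36) and Hes6 (-0.15), and took Notch4 to 0.013, Rbpj to 0.022 and Tle4 to -0.090. With an array left out they turned for Hes1 (0.13), Jag1 (-0.013) and Heyl (0.022) without KO replicate 1, Hes6 (-0.012) without KO replicate 2 and Heyl (0.039) without WT replicate 2, within ranges of -0.24 to 0.13 for Hes1, -0.013 to 0.38 for Jag1, -0.012 to 0.27 for Hes6 and -0.15 to 0.039 for Heyl. No paired analysis was possible because the labels name nothing that pairs a KO mouse with a WT mouse.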
